A study of Mus musculus with 52 samples.

Results

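The genes described are 8 markers of hippocampal fields and pyramidal neurons, Prox1, Dsp, C1ql2, Calb1, Wfs1, Fibcd1, Neurod6 and Bhlhe22. They were taken by symbol, through their Ensembl identifiers, and are 8 of the 46071 genes counted. RNA had been sequenced from the hypothalamus, hippocampus and nucleus accumbens of male C57BL/6J mice, an inbred laboratory strain, aged 3 months. Awake mice received saline, or insulin at 4 mU/kg/min (low rate) or 12 mU/kg/min (high rate), into a jugular vein, and blood glucose was held by infused glucose, a procedure called a clamp. Tissue was taken after 3 h. The saline (basal), low and high groups had 5, 6 and 5 libraries in the hypothalamus and 6 each in the hippocampus and in the nucleus accumbens, 52 in all. All groups were operated on in the same way and none carried a transgene. The labels tie no library to an animal, so whether regions came from the same mice was not known, and p-values measure the spread between libraries.

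The hippocampus is built of fields with distinct principal neurons. Granule cells of the dentate gyrus send mossy fibres to pyramidal neurons of field CA3, which in turn project to pyramidal neurons of field CA1. Prox1 encodes a homeobox transcription factor that maintains granule cell identity. Dsp encodes desmoplakin, a desmosomal plaque protein that marks granule cells in mouse brain, and C1ql2 encodes a secreted C1q-like protein of mossy fibre synapses. Calb1 encodes calbindin, a calcium buffer of granule cells and some CA1 neurons that many neurons outside the hippocampus also make. Wfs1, which encodes the endoplasmic reticulum membrane protein wolframin, and Fibcd1, which encodes a membrane receptor with a fibrinogen-like domain, are used as CA1 markers. Neurod6 and Bhlhe22 encode basic helix-loop-helix transcription factors of forebrain excitatory neurons, proteins of a family that binds short DNA elements called E-boxes.

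All 8 are protein-coding genes. On GRCm38, Prox1 lies at chr1:190118035-190170714 on the minus strand, where the antisense genes Prox1os and Gm28172 overlap it, and Dsp at chr13:38151294-38198577 on the plus strand, where Gm10129 overlaps it on the other strand. The strand setting of the counting was not given, so reads of these overlapping genes could not be separated from those of Prox1 and Dsp. C1ql2 lies at chr1:120340582-120343174 (plus), Calb1 at chr4:15881264-15908064 (plus), Wfs1 at chr5:36966104-36989205 (minus), Fibcd1 at chr2:31813290-31846005 (minus), Neurod6 at chr6:55677822-55681263 (minus) and Bhlhe22 at chr3:18054174-18057517 (plus). The G+C content of their longest transcripts ran from 36.8% for Calb1 and 45.3% for Prox1 to 57.8% for Wfs1, 59.4% for Fibcd1 and 63.4% for C1ql2.

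The 250 bases before a RefSeq start were in the RefSeq promoter table (GRCm38.p6) for 6 of the 8 genes. They are shown for the 2 pairs whose levels were most closely related across hippocampal libraries, Prox1 with Dsp and Wfs1 with Fibcd1, with E-box letters (CANNTG, which read as an E-box on both strands) in capitals. The windows are chr1:190170828-190171077 (minus strand) for Prox1, chr13:38151044-38151293 (plus) for Dsp, chr5:36988983-36989232 (minus) for Wfs1 and chr2:31846006-31846255 (minus) for Fibcd1. RefSeq starts can differ from the gene places given above. Most of the Wfs1 window lies inside the place given for that gene, and the Prox1 window does not adjoin the place given for Prox1.
Prox1: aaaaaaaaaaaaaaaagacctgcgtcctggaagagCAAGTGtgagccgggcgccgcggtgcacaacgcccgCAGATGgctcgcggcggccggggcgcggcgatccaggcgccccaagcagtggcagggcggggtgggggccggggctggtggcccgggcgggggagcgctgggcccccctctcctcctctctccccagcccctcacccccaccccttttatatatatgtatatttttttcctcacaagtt
Dsp: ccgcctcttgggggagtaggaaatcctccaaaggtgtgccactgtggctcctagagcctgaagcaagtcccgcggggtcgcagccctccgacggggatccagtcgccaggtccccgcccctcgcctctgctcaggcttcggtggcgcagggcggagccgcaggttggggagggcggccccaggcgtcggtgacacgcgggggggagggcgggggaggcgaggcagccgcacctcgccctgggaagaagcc
Wfs1: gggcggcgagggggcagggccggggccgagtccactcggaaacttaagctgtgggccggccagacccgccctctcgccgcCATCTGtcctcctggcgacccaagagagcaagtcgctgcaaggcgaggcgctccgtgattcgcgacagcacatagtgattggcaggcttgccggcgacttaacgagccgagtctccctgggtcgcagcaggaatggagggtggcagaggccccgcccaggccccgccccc
Fibcd1: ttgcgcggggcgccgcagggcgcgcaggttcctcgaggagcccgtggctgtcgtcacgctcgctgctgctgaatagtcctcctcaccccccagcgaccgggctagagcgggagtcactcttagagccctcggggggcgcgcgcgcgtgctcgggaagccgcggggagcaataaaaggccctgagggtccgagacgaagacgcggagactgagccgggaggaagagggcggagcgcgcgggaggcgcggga
The Prox1 window held 2 matches, CAAGTG and CAGATG, and the Wfs1 window held 1, CATCTG, which is CAGATG on the other strand. The Dsp and Fibcd1 windows held 0, so neither pair shared a match. Of the windows not shown, that of C1ql2 held 1 match and that of Neurod6 held 2. Among 32851 mouse promoters of the same length, 66.2% held CANNTG and 14.4% held CAGATG on either strand, so matches in 4 of 6 windows are near the general share.

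Library totals ranged from 2453412 to 8279612 counts. Levels are given as CPM, the reads of a gene scaled to the size of its library, on 1 common TMM scale, and libraries are numbered within a group in the order of deposit. The numbers in the library titles fell into a lowest, a middle and a highest tag range, which was treated as a possible batch. In 7 of 52 libraries, the deviation of each gene from its regional mean correlated with transcript G+C content above 0.4 across genes (Spearman), and the 3 hippocampal libraries among them are the 3 of the lowest tag range. In the hypothalamus, basal replicates 1, 2 and 5 leaned this way, and 1 or more of 5 hypothalamic peptide genes lay below 1 CPM in low replicates 1, 2 and 6 and high replicates 3 and 5. Hippocampal low replicate 5 stood apart in oligodendrocyte genes, with 12898 CPM summed over 4 genes (Mbp, Mog, Mag and Mobp) against at most 5397 CPM in the other hippocampal libraries. Its correlation with G+C content was 0.39, just under the cut of 0.4, so it stayed in the fits without leaning libraries. As a check of the tissue labels, 9 genes of striatal projection neurons summed to 1553 CPM or more in every accumbens library and to at most 284 CPM in the hippocampus, and 8 hypothalamic peptide genes had a median sum of 894 CPM in the hypothalamus and 17.4 CPM in the nucleus accumbens. Hypothalamic low replicate 2, at 63.9 CPM, lay within the accumbens range, which reached 71.9 CPM.

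The 4 granule cell markers did not share 1 regional pattern. Prox1 measured 126 to 489 CPM in the 18 hippocampal libraries (median 301 CPM), 36.9 to 83.8 CPM in the 16 hypothalamic libraries (median 65.4 CPM) and 11.2 to 39.4 CPM in the 18 accumbens libraries (median 27.9 CPM). Every hippocampal library was thus above every library of the other regions for this gene. Dsp measured 48.9 to 210.2 CPM in the hippocampus (median 156 CPM), 0.395 to 4.71 CPM in the hypothalamus and 0 to 0.982 CPM in the nucleus accumbens, where 4 of 18 libraries had no read. For Dsp the gap between the lowest hippocampal and the highest other library was the widest in proportion among the 4. C1ql2 measured 41.9 to 125 CPM in the hippocampus (median 65.4 CPM), 3.95 to 20.4 CPM in the hypothalamus and 0.614 to 7.25 CPM in the nucleus accumbens, again with no overlap between the hippocampus and the rest. Calb1, in contrast, was lowest in the hippocampus, at 84.2 to 241 CPM (median 138 CPM), and measured 145 to 347 CPM (median 246 CPM) in the hypothalamus and 126 to 494 CPM (median 210.2 CPM) in the nucleus accumbens. Its ranges overlapped between all regions.

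**Figure D1:**
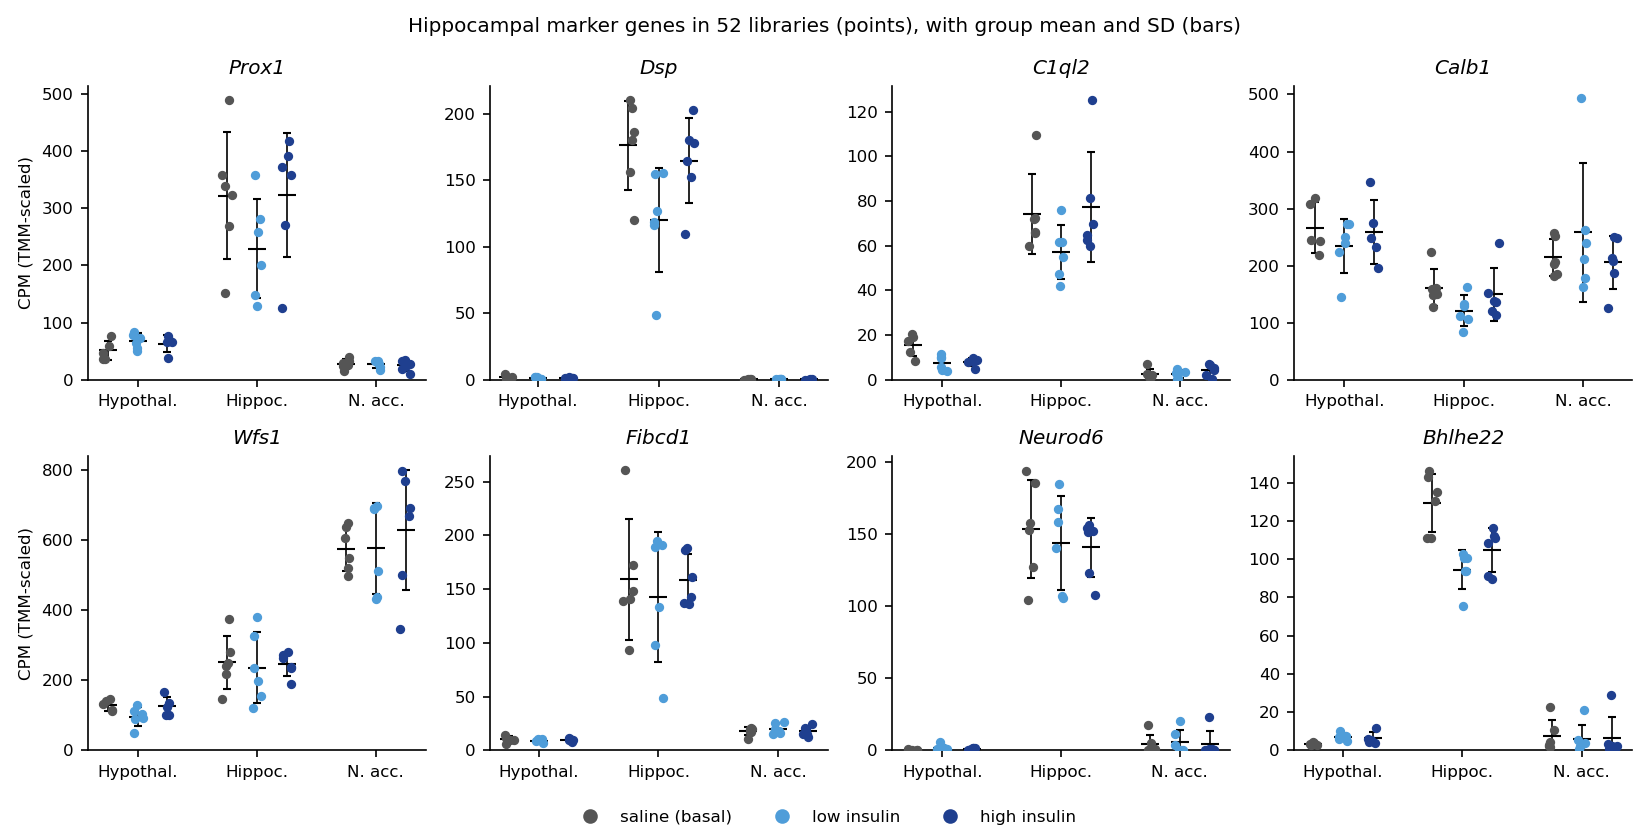
Levels of the 8 markers in CPM (y axes from 0, a scale per gene) in each of 52 libraries (points), by region and infusion, with the group mean and SD as bars. Hippocampal points lie above all others for 6 genes, while Calb1 overlaps between regions and Wfs1 has its highest points in the nucleus accumbens.

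The CA1 markers differed in the same way from each other. Fibcd1 measured 48.9 to 261 CPM in the hippocampus (median 146 CPM), 5.88 to 14.5 CPM in the hypothalamus and 10.9 to 26.6 CPM in the nucleus accumbens, so its hippocampal range lay apart. Wfs1 measured 121 to 379.6 CPM in the hippocampus (median 239 CPM), 50.3 to 167 CPM in the hypothalamus and 347 to 796 CPM (median 620.4 CPM) in the nucleus accumbens. Wfs1 was therefore higher in the ventral striatum than in the region whose CA1 field it is used to mark. Neurod6 measured 104 to 194 CPM in the hippocampus, against 0.161 to 6.12 CPM in the hypothalamus (median 0.880 CPM) and 0 to 23.5 CPM in the nucleus accumbens (median 0.776 CPM). Bhlhe22 measured 75.7 to 146 CPM in the hippocampus, 2.90 to 11.7 CPM in the hypothalamus (median 5.34 CPM) and 0.649 to 28.7 CPM in the nucleus accumbens (median 2.81 CPM). In the nucleus accumbens both factors thus had low medians and a few high libraries.

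Per kilobase of merged exons, the order of hippocampal levels was Neurod6 at 68.0 ± 13.2 CPM per kb (SD, n = 18), Wfs1 at 64.6 ± 18.6, C1ql2 at 34.8 ± 9.98, Prox1 at 34.7 ± 12.7, Bhlhe22 at 32.8 ± 5.70, Fibcd1 at 32.3 ± 9.92, Calb1 at 29.8 ± 7.86 and Dsp at 15.9 ± 4.26. Neurod6 and Wfs1 did not differ beyond their spread, nor did neighbours from C1ql2 down to Calb1. In the nucleus accumbens Wfs1 stood at 157 ± 32.9 CPM per kb (n = 18) and Calb1 at 46.7 ± 15.8, with the other 6 at 3.94 or less. In the hypothalamus Calb1 led at 52.1 ± 10.0 CPM per kb (n = 16), followed by Wfs1 at 30.5 ± 7.22, Prox1 at 7.30 ± 1.86 and C1ql2 at 5.13 ± 2.52. The same 2 genes, Calb1 and Wfs1, thus had the highest length-scaled levels of the 8 outside the hippocampus.

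**Figure D2:**
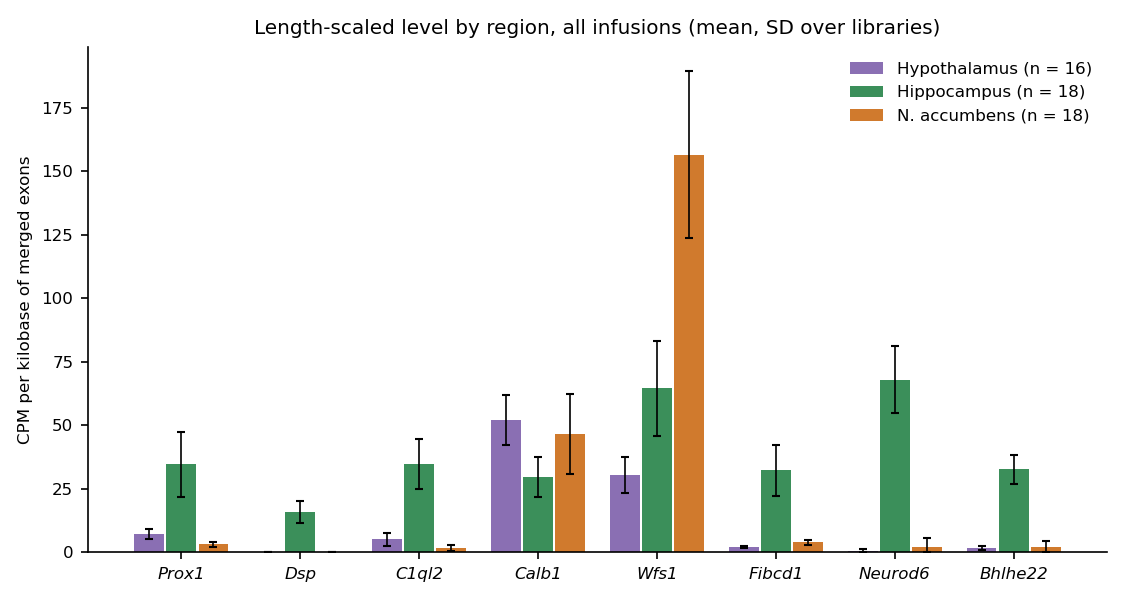
Length-scaled level of each gene (bars, mean over all libraries of a region in CPM per kilobase of merged exons, y axis from 0; error bars are SD). Wfs1 in the nucleus accumbens, at 157 CPM per kb, is the highest bar, and Dsp is the lowest of the 8 in the hippocampus at 15.9 CPM per kb.

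Regions were compared in the 17 saline libraries, with edgeR's quasi-likelihood test and Benjamini-Hochberg adjustment over 14093 genes, calling a gene below an adjusted p of 0.05. Against the hypothalamus, 8 of 8 markers were called, where 44.1% of all genes were, 7 of them higher in the hippocampus. The largest differences were those of Neurod6 (log2 fold change 8.21 ± 0.85 SE, adjusted p = 2.09e-07), with only 1 to 5 reads in each hypothalamic saline library, and Dsp (6.59 ± 0.34, adjusted p = 7.59e-12). Bhlhe22 differed by 5.19 on the log2 scale, Fibcd1 by 3.96, Prox1 by 2.64, C1ql2 by 2.22 and Wfs1 by 0.96, and in each the 6 hippocampal libraries lay above all 5 hypothalamic ones. How many of all genes separated completely between groups of libraries was not counted, for this or any comparison below. Calb1 was lower in the hippocampus by a log2 fold change of -0.73 ± 0.15 (edgeR adjusted p = 0.000396), with 5 of 6 hippocampal libraries below all hypothalamic ones. The median over the 8 was 3.30 on the log2 scale, beside -0.05 over all genes.

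Against the nucleus accumbens, 8 of 8 were called, where 27.9% of all genes were, 6 higher and 2 lower in the hippocampus. Dsp differed by 8.60 ± 0.37 (edgeR adjusted p = 8.41e-13), with 0 to 4 reads in each accumbens saline library, followed by Neurod6 at 5.44, C1ql2 at 4.69, Bhlhe22 at 4.19, Prox1 at 3.51 and Fibcd1 at 3.16. Wfs1 was lower in the hippocampus by a log2 fold change of -1.20 ± 0.16 (edgeR adjusted p = 6.46e-06), in 6 of 6 libraries below every accumbens library. Calb1 was lower by -0.41 ± 0.14 (edgeR adjusted p = 0.0333), a call lost in 7 of 17 fits that left out 1 library each (hippocampal basal replicate 1, 3, 4, 5 or 6, or accumbens basal replicate 2 or 5), with adjusted p up to 0.0905. Between the nucleus accumbens and the hypothalamus, 5 of 8 were called, where 29% of all genes were. Wfs1 (log2 fold change 2.16) and Fibcd1 (0.80) were higher in the nucleus accumbens, and Prox1 (-0.87), Dsp (-2.01) and C1ql2 (-2.48) were lower. The call of Prox1 was lost without hypothalamic basal replicate 3, at -0.64 (adjusted p = 0.0694). Neurod6 (2.77, adjusted p = 0.0535), Bhlhe22 (0.99, adjusted p = 0.129) and Calb1 (-0.32, adjusted p = 0.108) did not pass in edgeR. DESeq2 called Neurod6 (3.02, adjusted p = 0.00905). For Neurod6 the call was gained without any 1 of accumbens basal replicates 2, 4, 5 and 6, with values from 2.98 to 3.11 and adjusted p from 0.0199 to 0.0452.

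Other genes of the same fields, taken from lists, were mostly placed alike in the saline libraries. Of 9 further granule cell genes, 8 were called higher in the hippocampus than in the hypothalamus and 8 than in the nucleus accumbens, led by Lct, which encodes lactase, at 9.69 and 10.48 on the log2 scale. Of 6 further CA1 genes, 6 and 4 were higher, led by Spink8 (4.19 and 2.32). Of 11 CA2 and CA3 genes, 7 and 8 were higher and 1 and 1 lower, led by Ntf3, which encodes neurotrophin-3 (5.77 and 5.47). Of 8 genes of forebrain excitatory neurons, 8 and 6 were higher, led by Neurod2, a relative of Neurod6 (8.24 and 4.40). Over all 14093 genes, 2980 and 1931 were called higher in the hippocampus. The lists were chosen with earlier results of these data known, so their counts describe the placement and do not test it. The 8 hypothalamic peptide genes summed to at most 4.91 CPM in the hippocampus.

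In the hippocampus, none of the 8 markers passed the threshold under insulin at either rate. At the low rate 0 of 8 were called by edgeR, where 0% of 13515 genes were, and 3 of 8 had an unadjusted p under 0.05, beside 6.05% of all genes. DESeq2 called 1, Bhlhe22, among 38 genes that it called in all, and limma-voom called 0 of the 8. All 8 low-rate log2 fold changes were below 0 (median -0.39, beside -0.01 over all genes, of which 47.6% were above 0), but the 8 share libraries and are not independent. Bhlhe22 measured 111 to 146 CPM (median 133 CPM) with saline, 75.7 to 103 CPM (median 97.1 CPM) at the low rate and 89.8 to 116 CPM (median 109.8 CPM) at the high rate. All 6 low-rate libraries lay below all 6 saline libraries, while at the high rate 3 of 6 did. Its low-rate log2 fold change was -0.45 ± 0.11 (edgeR adjusted p = 0.21) and its high-rate value -0.31 ± 0.11 (edgeR adjusted p = 1). The low-rate value ranged from -0.50 to -0.40 when each library was left out in turn, with adjusted p from 0.145 to 0.67, and DESeq2 gave -0.46 with an adjusted p of 0.0223. Oligodendrocyte genes moved with these groups: the summed level of the 4 genes was 1628 to 3540.3 CPM with saline, 3972 to 12898 CPM at the low rate and 3385 to 5114 CPM at the high rate, with none of the 4 at 0. Every low-rate library was above every saline library in this sum, and the high-rate range overlapped that of saline. All 4 had an unadjusted p under 0.05 at the low rate (median log2 fold change 1.03) and 0 were called by edgeR. Choroid plexus genes also had values above 0 at the low rate in 7 of 7 (median log2 fold change 1.72), 4 of them at an unadjusted p under 0.05 and 0 called by edgeR. Their sum was 70.2 to 1470.0 CPM with saline (median 136 CPM), 98.8 to 6373 CPM at the low rate (median 2427 CPM) and 68.2 to 2877 CPM at the high rate, so the groups overlapped. Of 4 thalamic genes, 4 lay above 0 at the low rate (median 0.61) and 0 had an unadjusted p under 0.05. The part of any of these 3 lists in the marker values was not tested, and in bulk tissue fewer cells of a type and less RNA per cell cannot be told apart.

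Dsp and Prox1, both granule cell markers, had the lowest low-rate values of the 8, but their groups overlapped. Dsp measured 120.2 to 210.2 CPM (median 183 CPM) with saline, 48.9 to 156 CPM (median 123 CPM) at the low rate and 109 to 203 CPM (median 171 CPM) at the high rate. In Dsp 3 of 6 low-rate libraries lay below all saline libraries, and its low-rate log2 fold change of -0.55 ± 0.21 (edgeR adjusted p = 0.668) did not pass. Prox1 measured 151 to 489 CPM (median 331 CPM) with saline, 129 to 358 CPM (median 229 CPM) at the low rate and 126 to 417 CPM (median 364 CPM) at the high rate. When libraries were set side by side within the 6 runs of consecutive title numbers, each of which holds 1 library of each infusion, the low-rate library lay below the saline one in 6 of 6 runs for Prox1, Dsp, C1ql2 and Bhlhe22. It did so in 5 of 6 for Calb1 and in 3 of 6 for Wfs1, Neurod6 and Fibcd1. The share of all genes below saline in 6 of 6 runs was not counted. That grouping was chosen after seeing the data, the labels do not say what a run is, and with the run as a block 0 of 8 markers were called by edgeR. Low-minus-saline values were -0.49 ± 0.29 for Prox1, -0.38 ± 0.19 for C1ql2 and -0.41 ± 0.18 for Calb1 on the log2 scale, with adjusted p of 0.898, 0.841 and 0.765 in edgeR. For the CA1 markers they were -0.09 ± 0.24 for Wfs1 and -0.16 ± 0.27 for Fibcd1, and for Neurod6 -0.09 ± 0.16. At the high rate these 7 genes lay between -0.12 for Neurod6 and 0.06 for C1ql2, and 0 of 8 markers were called by edgeR, DESeq2 or limma-voom, where 0% of genes were, with 1 of 8 at an unadjusted p under 0.05. Among the 9 further granule cell genes, 0 were called and 9 lay below 0 at the low rate, with a median of -0.46. The 6 further CA1 genes had a median of -0.13, and the 11 CA2 and CA3 genes one of 0.04, with 0 called in each.

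**Figure D3:**
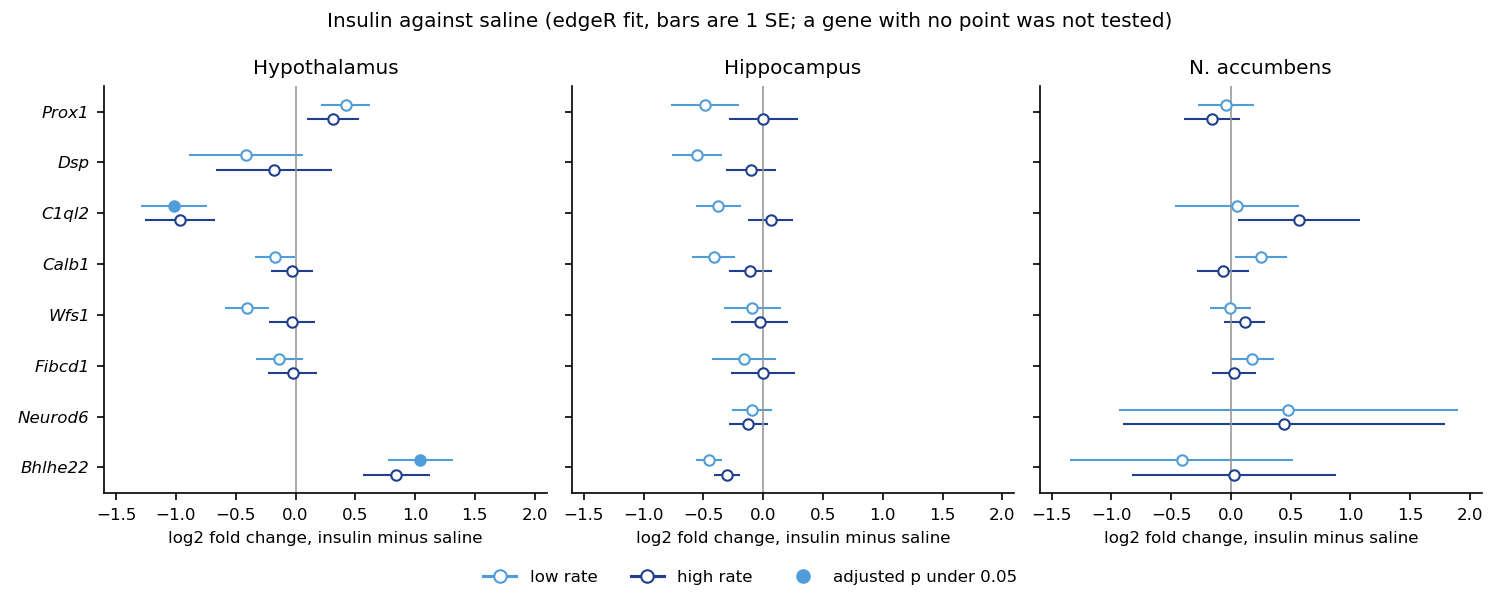
Log2 fold change of each marker under insulin minus saline (x axis) in the 3 regions, with bars of 1 SE, for the low and the high rate. The 2 filled points are C1ql2 and Bhlhe22 in the hypothalamus at the low rate; all 8 low-rate points in the hippocampus lie left of 0.

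In the hypothalamus, where these genes were sparse except Calb1, Wfs1 and Prox1, 2 markers were called at the low rate. The saline, low and high groups there held 3, 0 and 0 libraries leaning to G+C-rich transcripts. They held 0, 3 and 2 libraries short of a peptide gene, and 2, 1 and 0 of the lowest tag range. Infusion thus cannot be fully told apart from these traits. Of 7 tested, 1 was called higher and 1 lower by edgeR, where 5.38% of 14139 genes were called, and Neurod6 had too few reads to be tested. Of the 7, 3 had an unadjusted p under 0.05, beside 29.9% of all genes. Bhlhe22 measured 2.90, 3.99, 3.62, 4.32 and 2.92 CPM with saline, 5.14 to 10.3 CPM (median 7.23 CPM) at the low rate and 4.10, 5.54, 4.50, 5.79 and 11.7 CPM at the high rate. All 6 low-rate libraries were above all saline libraries, and at the high rate 4 of 5 were. The level rose from 3.55 ± 0.634 CPM (SD, n = 5) to 7.23 ± 1.71 CPM (n = 6), resting on 11 to 30 and 25 to 51 reads in a library. The log2 fold change was 1.04 ± 0.27 (edgeR adjusted p = 0.0376) at the low rate and 0.84 ± 0.28 (adjusted p = 0.14) at the high rate, where it was 0.51 (adjusted p = 0.214) without high replicate 5.

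C1ql2 moved the other way there. It measured 17.4, 19.4, 12.7, 8.25 and 20.4 CPM with saline, 3.95 to 11.4 CPM (median 7.78 CPM) at the low rate and 7.84, 9.98, 9.00, 8.42 and 4.88 CPM at the high rate. The groups overlapped, since basal replicate 4, at 8.25 CPM, lay among the insulin libraries, and 3 of 6 low-rate libraries were below all saline libraries. C1ql2 fell by 1.02 ± 0.28 on the log2 scale at the low rate (edgeR adjusted p = 0.0419) and had a value of -0.97 ± 0.29 at the high rate (adjusted p = 0.128), which passed without basal replicate 4 (-1.11, adjusted p = 0.0271) and was -0.41 (adjusted p = 1) without the G+C-leaning libraries. The 3 saline libraries that lean to G+C-rich transcripts held its 3 highest values, and the 3 low-rate libraries short of a peptide gene held its 3 lowest. Leaving out the leaning libraries kept saline replicates 3 and 4. The low-rate value of C1ql2 was then -0.46 (edgeR adjusted p = 0.836) and that of Bhlhe22 0.90 (edgeR adjusted p = 0.811). Without the libraries short of a peptide gene, C1ql2 stood at -0.58 (adjusted p = 0.156) and Bhlhe22 at 0.79 (adjusted p = 0.116). With tag range in the model C1ql2 kept a value of -0.98 (adjusted p = 0.16) and Bhlhe22 one of 1.12 (adjusted p = 0.116). Fitting only the saline and low-rate libraries gave -1.02 (adjusted p = 0.112) and 1.04 (adjusted p = 0.0704), and fitting all 52 libraries gave -1.03 (adjusted p = 0.0542) and 1.02 (adjusted p = 0.254). The call of C1ql2 was lost in 11 of 16 fits that left out 1 library each (basal replicate 1, 2 or 5, low replicate 2, 3, 4 or 6, or high replicate 1, 2, 3 or 4), with values from -1.18 to -0.90. That of Bhlhe22 was lost in 7 of 16 (basal replicate 1, 2 or 5, low replicate 2, 3 or 6, or high replicate 4), with values from 0.89 to 1.14.

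The other hypothalamic values did not pass. At the low rate they were 0.42 ± 0.21 for Prox1 (adjusted p = 0.177), -0.40 ± 0.18 for Wfs1 (adjusted p = 0.15), -0.42 ± 0.48 for Dsp, -0.17 ± 0.17 for Calb1 and -0.14 ± 0.20 for Fibcd1, all from edgeR. Prox1 measured 36.9, 37.3, 75.9, 59.7 and 47.1 CPM with saline and 50.1 to 83.8 CPM (median 69.2 CPM) at the low rate, and it passed without basal replicate 3, the highest saline library (0.61, adjusted p = 0.0432). Without the G+C-leaning libraries Prox1 stood at 0.01 (adjusted p = 0.997), and with tag range in the model at 0.26 (adjusted p = 0.42). At the high rate 0 of 7 markers were called by edgeR, DESeq2 or limma-voom, where 0.184% of genes were called by edgeR, and 2 of 7, Bhlhe22 and C1ql2, had an unadjusted p under 0.05, beside 24.1% of all genes. Among the companion lists, Ndst4, a heparan sulfate sulfotransferase gene of the CA1 list, rose by 1.08 ± 0.24 at the low rate (adjusted p = 0.0249), and Rgs14, a regulator of G protein signalling that marks CA2, fell by 1.12 ± 0.30 (adjusted p = 0.0391). They were 1 of 5 CA1 genes and 1 of 9 CA2 and CA3 genes tested, and 0 of 7 granule cell and 0 of 7 forebrain excitatory genes were called.

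In the nucleus accumbens no marker passed the threshold under insulin. At each rate 0 of 7 tested were called by edgeR, DESeq2 or limma-voom, where 0% of 13769 genes were called by edgeR, and 0 of 7 had an unadjusted p under 0.05. Dsp had too few reads to be tested. Wfs1, the most abundant of the 8 there, measured 497 to 647 CPM (median 576 CPM) with saline, 431 to 695 CPM (median 599.7 CPM) at the low rate and 347 to 796 CPM (median 679 CPM) at the high rate. Its log2 fold changes of 0.00 ± 0.17 and 0.12 ± 0.17 were within the spread between libraries. Calb1 differed by 0.25 ± 0.22 and -0.06 ± 0.22, with 494 CPM in low replicate 2 against at most 262 CPM in the other 5. Neurod6 (0.48 ± 1.42 and 0.44 ± 1.35) and Bhlhe22 (-0.41 ± 0.93 and 0.02 ± 0.85) had standard errors near or above 1 on the log2 scale.

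Both factors were high together in 1 library of each infusion. Neurod6 measured 17.6 CPM in basal replicate 3, 20.1 CPM in low replicate 4 and 23.5 CPM in high replicate 5, and Bhlhe22 measured 22.9, 20.9 and 28.7 CPM in the same libraries. In the other 15 accumbens libraries Neurod6 did not exceed 11.6 CPM and Bhlhe22 did not exceed 10.6 CPM. The 8 forebrain excitatory genes summed to 3031, 3015 and 2970 CPM in those 3 libraries and to 774 to 1979 CPM in the others. Neocortical layer markers (Rorb, Cux2, Fezf2, Rspo1 and Lamp5) summed to 151, 157 and 135 CPM in the 3 libraries, against 143 to 188 CPM in the other 15. The part of excitatory cells in these values was not tested.

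**Figure D4:**
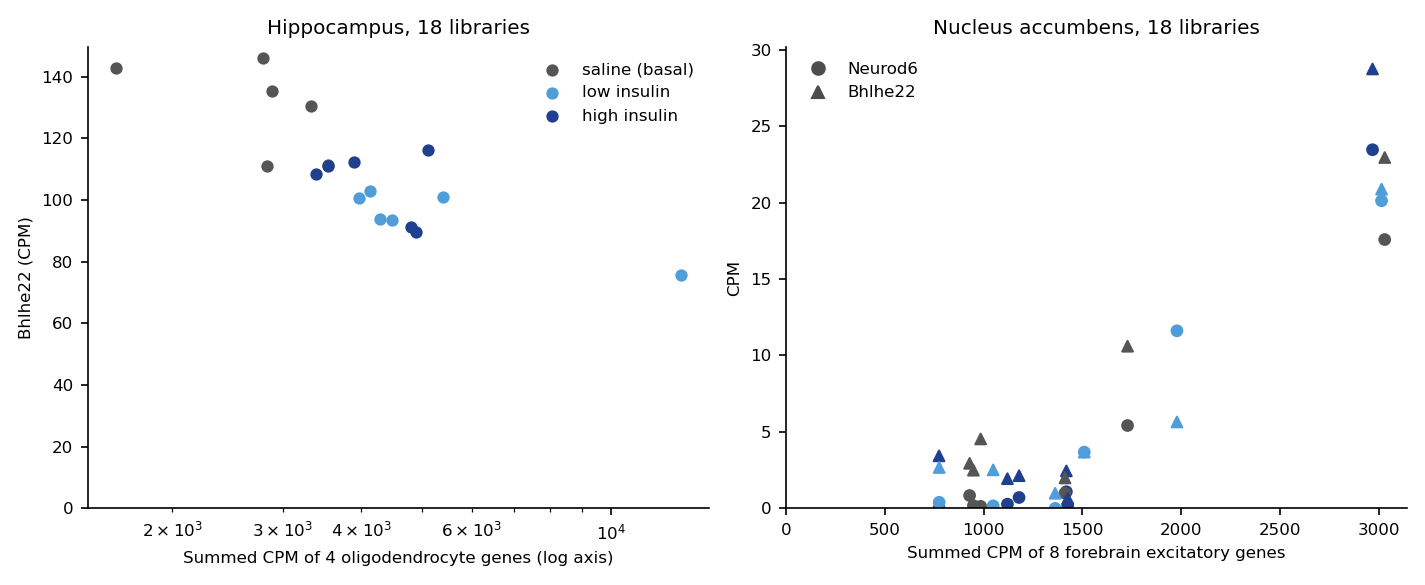
Left, Bhlhe22 in CPM against the summed CPM of 4 oligodendrocyte genes (log axis) in 18 hippocampal libraries, where all saline points lie left of all low-rate points (1 saline point is hidden by a high-rate point). Right, Neurod6 and Bhlhe22 in CPM against the summed CPM of 8 forebrain excitatory genes in 18 accumbens libraries, colours for infusion as on the left; the 3 libraries at the right, from 2970 to 3031 CPM, hold the highest values of both genes.

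Whether insulin acted differently between regions was tested as an interaction over all 52 libraries and 14985 genes, taking libraries as independent. For the low rate, 0 of 8 markers were called between hippocampus and hypothalamus, where 0% of genes were. Bhlhe22 had opposite low-rate values in them, 1.04 for hypothalamic and -0.45 for hippocampal tissue, and the difference, hippocampus minus hypothalamus, was -1.47 ± 0.74 (edgeR adjusted p = 0.209). In a fit of only the 34 libraries of these regions, chosen after seeing the data, it was -1.48 with an adjusted p of 0.0403. Prox1 differed by -0.89 ± 0.37 (edgeR adjusted p = 0.156). At the high rate C1ql2 differed by 1.04 ± 0.45 between the same regions (adjusted p = 0.509) and by 1.54 ± 0.54 between nucleus accumbens and hypothalamus (adjusted p = 0.228). Between the high and low rates within a region, 0 of 8 hippocampal, 0 of 7 hypothalamic and 0 of 7 accumbens markers were called by edgeR, DESeq2 or limma-voom, where 0% of genes were called by edgeR, and only Dsp (0.45 ± 0.21) and C1ql2 (0.44 ± 0.19) in the hippocampus had an unadjusted p under 0.05. In the remaining interactions 0 of 8 were called as well, where 0% of genes were, and these comparisons share their saline libraries.

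Across the 18 hippocampal libraries some pairs of markers rose and fell together. Of 28 pairs, 5 were related in log2 CPM below a Benjamini-Hochberg adjusted permutation p of 0.05, all positively. The share of related pairs among all genes was not counted, so the 5 are not shown to be particular to these markers. The permutation takes the 18 libraries as independent. Wfs1 and Fibcd1, both CA1 markers, had Pearson r = 0.89 (permutation p = 1e-05, the smallest that 100000 permutations can give; adjusted p = 0.00028) and Spearman rho = 0.80 (permutation p = 0.00011). Without the 2 libraries farthest from the median of Wfs1 it was r = 0.81. Within the middle tag range (n = 6) it was 0.98 (exact permutation p = 0.0014) and within the highest (n = 9) 0.90 (exact permutation p = 0.0038). Leaving out low replicate 5 gave 0.74 in the highest range (n = 8, exact permutation p = 0.036). Prox1 and Dsp, both granule cell markers, had r = 0.79 (permutation p = 2e-05, adjusted p = 0.00028) and rho = 0.78 (permutation p = 0.00025), and 0.77 without the 2 libraries farthest in Prox1. Within the middle range it was 0.60 (n = 6, exact permutation p = 0.21) and within the highest 0.95 (n = 9, exact permutation p = 0.006), where leaving out low replicate 5 gave 0.62 (n = 8, exact permutation p = 0.1).

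The other related pairs each missed the adjusted threshold in some smaller set of libraries. Dsp and Bhlhe22 had r = 0.72 (adjusted p = 0.0037), rho = 0.68, and 0.54 without the 2 libraries farthest in Dsp. Without low replicate 5 their r was 0.60 (adjusted p = 0.054). C1ql2 and Fibcd1 had r = 0.66 (adjusted p = 0.033) and 0.60 without the 3 libraries of the lowest range (adjusted p = 0.11). Prox1 and Bhlhe22 had r = 0.61 (permutation adjusted p = 0.036). Their r was 0.62 without the lowest range (n = 15, permutation adjusted p = 0.072) and 0.50 without low replicate 5 (n = 17, permutation adjusted p = 0.11).

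Among pairs of the granule cell markers Prox1, Dsp, C1ql2 and Calb1, only Prox1 with Dsp passed over the 18 libraries. Prox1 with Calb1 also passed without the lowest range (r = 0.68, permutation adjusted p = 0.041). Within the highest range (n = 9) each of these pairs had a positive r, from 0.75 to 0.95. Without low replicate 5 (n = 8) these values were 0.35 to 0.62. Prox1 and C1ql2 had r = -0.42 (permutation adjusted p = 0.22) over 18 libraries, -0.67 without low replicate 5 (adjusted p = 0.023), -0.78 on values centred on infusion means (adjusted p = 0.005), 0.28 without the lowest range (adjusted p = 0.42) and 0.86 within the highest range (n = 9, exact permutation p = 0.0062). In the highest range without low replicate 5, r was 0.61 (n = 8, exact permutation p = 0.11). The 3 libraries of the lowest range held 151, 148 and 126 CPM of Prox1, among the 4 lowest of 18, and 109.7, 75.9 and 125 CPM of C1ql2, among its 4 highest. Their correlation with transcript G+C content was 0.51 to 0.58. Prox1 and Fibcd1 had r = -0.15 (adjusted p = 0.7) over 18 libraries and rho = -0.56 (permutation p = 0.018). Without low replicate 5, in which Prox1 measured 129 CPM and Fibcd1 48.9 CPM, it was -0.77 (adjusted p = 0.0023), and without the 2 libraries farthest in Prox1 -0.80. Within the middle range r was -0.87 (n = 6, exact permutation p = 0.029), and within the highest 0.82 (n = 9, exact permutation p = 0.089) or, without low replicate 5, -0.35 (n = 8, exact permutation p = 0.41). Within the highest range its sign thus turned with 1 library, and neither value there passed. Replicate 2 of each infusion, whose correlations with G+C content were -0.55 to -0.58, held Prox1 at 489, 358 and 417 CPM, Calb1 at 223, 162 and 241 CPM, and Fibcd1 at 93.3, 98.3 and 136 CPM. The part of base composition in these relations was not tested.

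**Figure D5:**
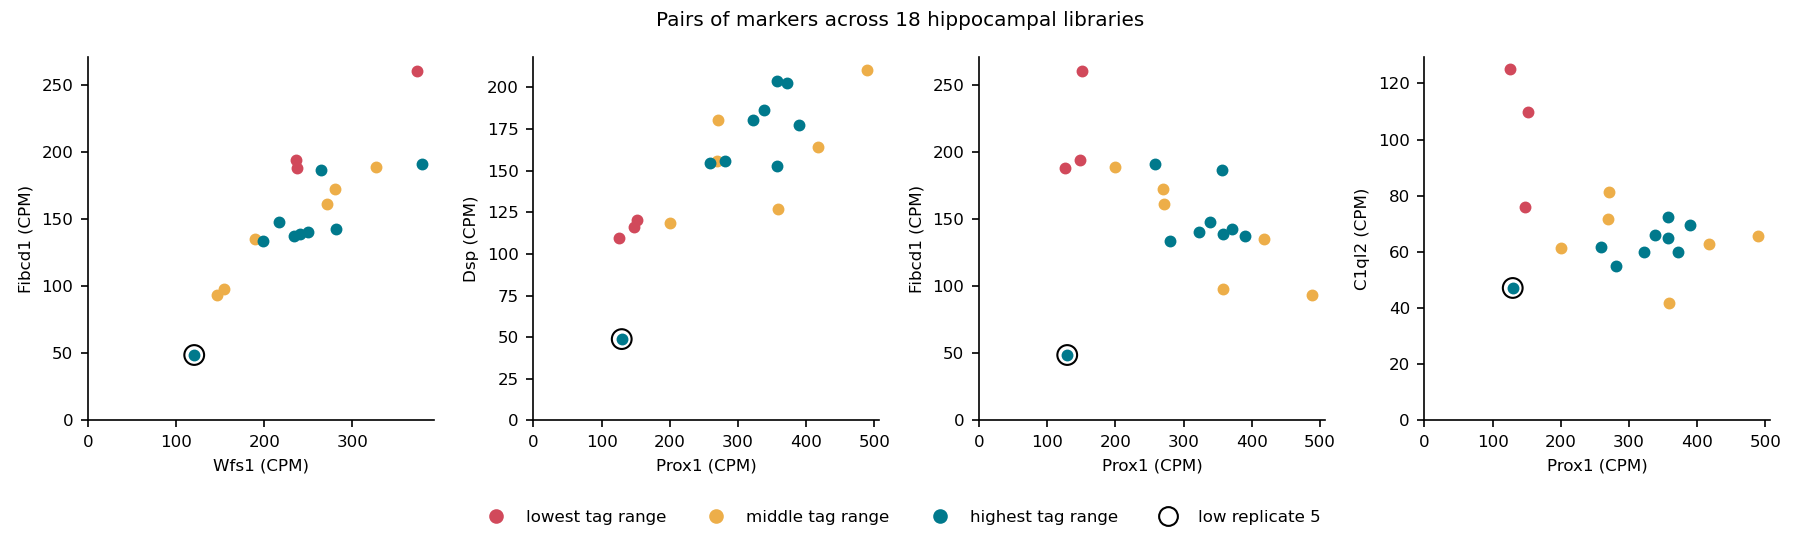
Pairs of markers in CPM across 18 hippocampal libraries, coloured by tag range, with low replicate 5 ringed. Wfs1 and Fibcd1 rise together (r = 0.89), as do Prox1 and Dsp (r = 0.79); Prox1 against Fibcd1 falls except for the ringed library, and Prox1 against C1ql2 has the 3 lowest-range libraries at upper left.

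The genes most like Prox1, Fibcd1 and Neurod6 were ranked among 11669 genes of at least 5 CPM by Pearson r of log2 CPM centred on infusion means over the 18 hippocampal libraries. For Prox1 they were Lrrc58 (r = 0.98), Ireb2, B230219D22Rik, Cggbp1 and Zbtb33 (0.97 each), whose transcripts had 39.0% to 43.0% G+C, below the median of 49.6% over the genes compared. For Fibcd1 they were Elfn2 (0.94), Plxna1 (0.93), Ccdc88c (0.92), Pkd1 and Tmem150c (0.91 each), with 51.1% to 58.2% G+C. For Neurod6 they were Rnf182 (0.89), Cnrip1 (0.86), the mitochondrial transfer RNA gene mt-Tn, Chn1 (0.84 each) and Ppp3ca (0.83). None of the 15 was another of the 8 markers. Without the lowest tag range the r of these genes was 0.92 to 0.95 for Prox1, 0.91 to 0.97 for Fibcd1 and 0.82 to 0.89 for Neurod6.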

How the data were processed

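Read counts per gene were deposited by the authors as 1 table with no normalization. STAR and featureCounts on GRCm38.p4 are named per the submitters' processing notes; their versions and options, and the annotation release, were not given in the sources used here. Of 46071 identifiers, 45229 matched GENCODE M21, which gave places, exon lengths and G+C content. Each region was fitted with its 3 infusions in edgeR 4.0.16 (R 4.3.3): TMM, filterByExpr and a robust quasi-likelihood test, 2-sided, adjusted over all genes tested. Saline libraries of the regions were fitted together, and interactions over all 52. Relations were tested by 2-sided permutation (prior count 2 in log2 CPM). PCR copies were not separated, and the number of reads limits sparse genes. Alternatives used DESeq2 1.42.0, limma 3.58.1 voom, other scaling, filters, batches and library sets. The fits were tested on simulated counts. The 8 genes and the companion lists were chosen with earlier results of these data known. From 1 marker list, 1 gene is not reported here and entered no sum. Named genes were the 8, the called companions with the largest change (up to 2 per list and insulin contrast; regions by the largest difference), and 5 most like each of 3 markers.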

Additional observations from a re-analysis of the deposited data

Results flagged for a closer look

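Among 72 sets of libraries (1 gene in 1 region and infusion), 16 held a library set far apart from the rest of its set. For independent sets with a normal spread the rule would flag about 3.6, or 1 in 20. These sets share libraries, and some rest on few reads (1 to 5 for Neurod6 in hypothalamic saline libraries). The 16 therefore cannot be set against that number. In the hippocampus the libraries set apart included low replicate 5, with Dsp at 48.86 CPM (others 116.1 to 155.7 CPM) and Bhlhe22 at 75.72 CPM (others 93.57 to 102.8 CPM). C1ql2 stood at 109.7 CPM in basal replicate 1 and 125.2 CPM in high replicate 1, both of the lowest tag range. Calb1 stood at 223.2 CPM in basal replicate 2 and 240.6 CPM in high replicate 2, both with the most negative correlation with transcript G+C content in their groups. In the nucleus accumbens, Neurod6 stood at 17.58 CPM in basal replicate 3 and 23.45 CPM in high replicate 5, and Bhlhe22 at 20.87 CPM in low replicate 4 and 28.73 CPM in high replicate 5. Calb1 in low replicate 2 was 494.3 CPM (others 162.1 to 262.3 CPM) and C1ql2 in basal replicate 6 was 7.147 CPM (others 1.391 to 2.591 CPM). In the hypothalamus the libraries were low replicate 2 for Neurod6 at 6.116 CPM, basal replicate 5 for Neurod6 at 1.042 CPM, high replicate 5 for Bhlhe22 at 11.68 CPM and high replicate 3 for Prox1 at 37.77 CPM.

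Bhlhe22 had a low-rate log2 fold change of 1.043 in the hypothalamus and -0.4535 in the hippocampus, with all 6 insulin libraries above, respectively below, all saline libraries. The test of the difference over 52 libraries gave an edgeR adjusted p of 0.209.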

How the results depend on the processing

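The count of markers called in the hypothalamus at the low rate, 2, became 0 when tag range entered as a batch, without G+C-leaning libraries, with only the 2 groups compared, without libraries short of a peptide gene, and with all 52 libraries in 1 fit. Calls among all genes, 760 in the main fit, were then 29, 3, 22, 24 and 734, in that order. The count of markers was 0 to 3 when each library was left out. At the high rate it was 0, and 0 to 1 on leaving out libraries. It was 1 without basal replicate 4, where 1861 of all genes were called, beside 26 in the main fit. In the hippocampus at the low rate DESeq2 called 1 in place of 0, and 38 in place of 0 among all genes. The interaction of hippocampus and hypothalamus at the low rate gave 1 in the 34 libraries of these regions in place of 0, where 1 of all genes was called. Counts for the other comparisons stayed within 1.5 times, and no called value changed sign. Calb1 between hippocampus and nucleus accumbens also lost its call without G+C-leaning libraries (-0.35, adjusted p = 0.0541) and in the fit of 52 libraries (-0.41, adjusted p = 0.125). Between nucleus accumbens and hypothalamus, Prox1 lost its call with no filter on low counts (adjusted p = 0.0535), Fibcd1 lost it without G+C-leaning libraries (adjusted p = 0.0692), and Calb1 gained one with the tag range (-0.41, adjusted p = 0.0399). Related pairs numbered 5, with 4 without the lowest tag range, 6 (5 positive and that of Prox1 with C1ql2 negative) on values centred on infusion means and 5 (3 positive, 2 negative) without hippocampal low replicate 5. The causes of these changes were not tested, and fits without some libraries also rest on fewer libraries. The labels give no replicate numbers, but the title numbers form runs, split at gaps over 5 (a block added after seeing the data). Libraries of 1 run deviated together above r = 0.1 in 12 of 18 hippocampal, 9 of 12 hypothalamic and 10 of 18 accumbens pairs. Between runs, 27 of 90, 21 of 73 and 26 of 90 pairs did. Median r was 0.313, 0.215 and 0.166 within runs, against -0.0148, -0.0531 and -0.022 between them. Libraries of a run thus tended to deviate together, which the main fits leave out of account. Whether a run pairs samples is not given by the labels. With the run as a block, hypothalamic low-rate calls among the markers went from 2 to 0 (C1ql2 -0.99, adjusted p = 0.199; Bhlhe22 1.12, adjusted p = 0.137) and those among all genes from 760 to 16; Calb1 between nucleus accumbens and hypothalamus gained a call (-0.54, adjusted p = 0.01). In the hippocampus at the low rate the blocked values were -0.45 for Bhlhe22 (adjusted p = 0.0718), -0.46 for Prox1 and -0.57 for Dsp (adjusted p = 0.342 each), and 0 were called; no other marker call changed among the insulin and saline comparisons, and interactions were not blocked. Genes at a few reads (Dsp in the nucleus accumbens, Neurod6 in the hypothalamus) allow no insulin test at this depth.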
